A study of Mus musculus with 16 samples.

Results

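Pancreatic islets of 2 inbred mouse strains that develop diabetes in different ways were compared for chromatin accessibility: NZO_HlLtJ (NZO) and NOD_ShiLtJ (NOD). NZO mice become obese and can develop a diabetes that resembles type 2, in which islets face insulin resistance. NOD mice are lean and develop autoimmune diabetes, in which leukocytes enter the islet and destroy beta cells. The 2 NZO samples (1 female, 1 male) and the 2 NOD samples (1 female, 1 male) belong to a set of 16 ATAC-seq samples from the females and males of 8 strains, the founders of the Diversity Outbred population. The other 6 strains are 129S1_SvImJ (129), A_J (AJ), C57BL/6J (B6), CAST_EiJ (CAST), PWK_PhJ (PWK) and WSB_EiJ (WSB). Each sample was made from 50 islets of average size. No treatment, transgene or engineered allele is named for any of them. Age, diet, blood glucose and the number of mice per sample are not given in the labels, so it is not known whether the NZO or NOD donors were diabetic, and the p-values below measure the spread between these samples only. Strain was the only labelled difference between the 2 groups, and each group held both sexes.

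ATAC-seq uses the Tn5 transposase to cut DNA where nucleosomes and bound proteins leave it exposed, so peaks of signal mark promoters and enhancers. The peak lists of the 4 samples on chromosomes 1 to 19 merged into 186393 regions of mm10, of median width 200 bases. A total of 58922 regions held a peak of all 4 samples and had a median width of 652 bases. A further 13105 regions (7.03%) held a peak of both NZO samples and of neither NOD sample (NZO-only regions), and 5557 (2.98%) the reverse (NOD-only regions). The signal of a peak is its height at the summit, which was deposited without scaling to depth. It is given below divided by the sample's median over the 58922 shared regions, so that 1 is the level of the median shared region; this is called the scaled signal. Islets are mixtures of beta, alpha, delta and other cells, and in such bulk samples fewer cells of a type and a lower signal per cell cannot be told apart.

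A short run of letters recurs in what follows. AP-1 is a family of dimeric transcription factors made of JUN and FOS proteins, induced by stress, cytokines, growth factors and glucose, and it binds the letters TGANTCA. In a window of 200 bases centred on the highest summit, searched on both strands, these letters stood in 17.9% of all 186393 regions. The windows printed here are examples, and the 3 NZO-only ones are all among those with AP-1 letters. Beside them stand 2 NOD-only regions and the region with the largest excess in NZO among regions tested in all 16 samples. The last is the promoter of Slc2a2, which encodes the glucose transporter GLUT2 of beta cells. All these windows are the plus strand of the mm10 reference, which is the B6 sequence, and were not read from NZO or NOD mice. Capitals mark the AP-1 letters, and none of these windows holds a base of an annotated exon.
NZO-only, intron of Csmd1, chr8:15914706-15914905: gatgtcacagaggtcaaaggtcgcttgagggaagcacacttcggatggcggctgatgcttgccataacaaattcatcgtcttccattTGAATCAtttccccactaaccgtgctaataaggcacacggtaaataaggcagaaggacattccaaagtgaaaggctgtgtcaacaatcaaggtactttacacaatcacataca
NZO-only, intergenic, nearest coding gene Rubcnl, chr14:75054742-75054941: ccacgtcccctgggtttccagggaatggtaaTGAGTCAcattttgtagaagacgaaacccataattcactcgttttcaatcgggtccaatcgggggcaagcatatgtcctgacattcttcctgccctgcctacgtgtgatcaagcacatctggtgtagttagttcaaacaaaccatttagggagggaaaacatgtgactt
NZO-only, intergenic, nearest coding gene St7, chr6:17963864-17964063: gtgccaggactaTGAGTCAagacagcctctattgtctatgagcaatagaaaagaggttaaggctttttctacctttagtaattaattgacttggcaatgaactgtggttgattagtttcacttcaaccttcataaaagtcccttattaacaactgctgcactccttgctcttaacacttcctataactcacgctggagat
NOD-only, intron of Rgs20, chr1:5001174-5001373: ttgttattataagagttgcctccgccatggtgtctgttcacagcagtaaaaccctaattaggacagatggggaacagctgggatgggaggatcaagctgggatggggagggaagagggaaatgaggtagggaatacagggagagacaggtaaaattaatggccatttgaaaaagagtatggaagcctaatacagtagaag
NOD-only, intron of Cobl, chr11:12375033-12375232: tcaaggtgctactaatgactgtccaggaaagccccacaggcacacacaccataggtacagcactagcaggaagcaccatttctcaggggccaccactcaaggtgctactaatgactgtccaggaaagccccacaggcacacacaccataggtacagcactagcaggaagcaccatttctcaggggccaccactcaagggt
higher in NZO, intron of Gm5444, nearest coding gene Akr1e1, chr13:4778458-4778657: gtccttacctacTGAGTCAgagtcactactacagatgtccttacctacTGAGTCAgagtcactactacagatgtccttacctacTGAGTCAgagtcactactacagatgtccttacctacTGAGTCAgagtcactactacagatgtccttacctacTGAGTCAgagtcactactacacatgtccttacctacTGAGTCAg
higher in NZO, promoter of Slc2a2, chr3:28721898-28722097: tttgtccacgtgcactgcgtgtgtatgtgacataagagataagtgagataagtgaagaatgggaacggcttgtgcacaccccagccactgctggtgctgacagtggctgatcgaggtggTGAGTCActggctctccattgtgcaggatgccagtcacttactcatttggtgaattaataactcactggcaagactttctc

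Of the 10 strongest NZO-only regions, 6 held the AP-1 letters in this window, and of the 10 strongest NOD-only regions 0 did. Over all NZO-only and all NOD-only regions the shares were 30.4% and 7.77%. Among the shared regions named below, 4 of 14 windows higher in NZO held the letters. Of those lower in NZO, 1 of 12 did, and so did that in Ccdc178. A match is a description of the reference letters, not a bound site. The window in Gm5444 is a tandem repeat, in which 6 copies of the AP-1 letters recur with a period of 36 bases. Shifted by 36 bases, 99.4% of its letters were equal to themselves. The Cobl window repeats with a period of 96 bases, with 98.1% of letters equal. The number of repeat copies in NZO and NOD genomes was not measured here, and since all reads were aligned to the B6 reference, a different copy number and a different accessibility cannot be told apart at such places.

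The NZO male stood apart from the other 3 samples. Its list held 141307 peaks, against 106539 in the NZO female, 89618 in the NOD female and 94449 in the NOD male. Its median summit signal in the shared regions was 42, against 58 to 61 in the others, and 55115 regions (29.6% of all) were called in it alone. Over the shared regions, log2 signals of the NZO female correlated more closely with the NOD samples (Pearson r = 0.883 and 0.887 over regions, which share libraries and are not replicates) than with the NZO male (r = 0.835), while the NOD female and male had r = 0.954. The SD of the female minus male difference was 0.738 on the log2 scale in NZO and 0.393 in NOD. Results that rest on the NZO male are therefore given with and without it.

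Markers of leukocytes and duct cells had more promoter peaks in the NZO male than in any other sample. Among 34 leukocyte genes on autosomes, 20 had a promoter peak in the NZO male, 8 in the NZO female, 8 in each NOD sample, and 6 to 9 in the 12 samples of the other strains. All 10 duct genes had one in the NZO male, against 7 in the NZO female, 5 in each NOD sample and 5 to 9 in the other strains, so the NZO female was at their median of 7 and NOD at their lowest. Of 18 acinar genes, 8 had one in the NZO male, 4 in the NZO female, 3 in the NOD female, 4 in the NOD male and 3 to 8 in the other strains. Of 22 endothelial and stromal genes, 11 had one in the NZO male, 8 in the NZO female, 8 in the NOD female, 7 in the NOD male and 6 to 12 in the other strains. For acinar, endothelial and stromal genes the NZO male was thus within the range of the other strains. Cd3e, a defining T cell gene, had no promoter peak in any of the 4 samples, and the scaled signal at Ptprc, the gene of the common leukocyte antigen CD45, was 0.295 and 0.286 in NZO female and male, and 0.344 and 0.31 in NOD female and male. Of 23 beta cell genes, 21 and 22 had a promoter peak in NZO and 22 and 21 in NOD, so the markers of the labelled tissue were present. The part of other cells in the results below was not tested.

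**Figure D1:**
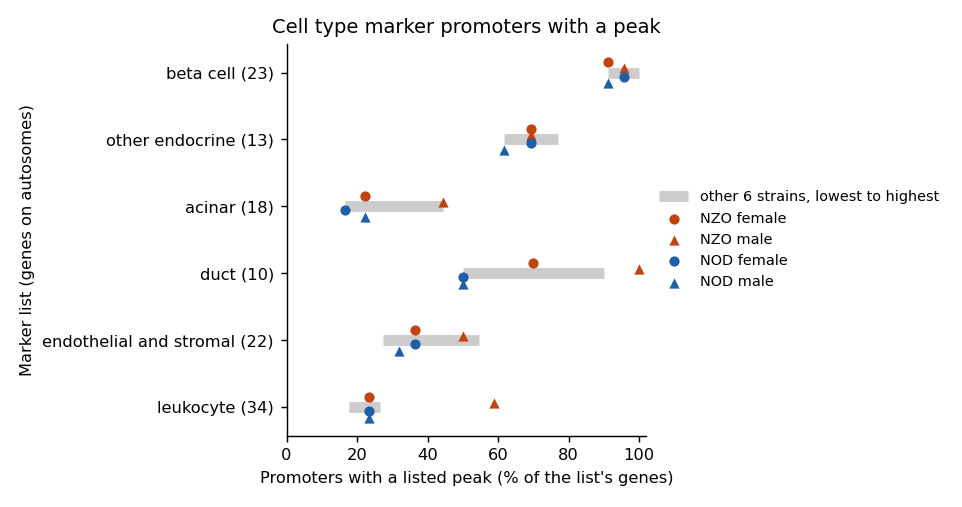
Share of each marker list's autosomal genes (list size in brackets) with a peak within 1000 bases of a transcript start, in percent, for the 4 samples and, as grey bars, the range over the 12 samples of the other strains. The beta cell counts are 21 or 22 of 23 in all 4, while the NZO male has 20 of 34 leukocyte promoters and all 10 duct promoters.

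In regions called in all 4 samples, no region was called different at an adjusted p under 0.05 by limma with the 4 samples alone, higher (0.0% of 58922) or lower (0.0%) in NZO, although 11516 had an unadjusted p under 0.05. With sex as a replicate block, which leaves 1 residual degree of freedom, the same fit called 1133 higher and 1227 lower, and with a variance prior that follows the signal level 89 and 201. The NZO and NOD values did not overlap in 12705 regions with NZO higher (21.6%) and in 19858 with NZO lower (33.7%). Because 4 samples leave few degrees of freedom, a second fit used all 16 samples, with 1 mean per strain. It covered the 42085 regions called in every one of the 16 and took 1 spread per region for all strains. Its SEs and p-values thus do not measure the wider gap between the NZO samples alone. There, 1078 regions (2.56%) were higher and 1505 (3.58%) lower in NZO than in NOD at an adjusted p under 0.05, with a median size of 1.36 and 1.26 on the log2 scale. In every one of these regions the NZO and NOD samples did not overlap and the NZO female alone differed from NOD in the same direction. The calls rest on these same values, so this was nearly fixed by the choice; over all 42085 regions 57.2% did not overlap and the NZO female had the sign of the fitted difference in 33966. Without the NZO male, 149 were higher and 132 lower, and without the NZO female 4241 and 5593. Without the NOD female the counts were 77 and 75, and without the NOD male 96 and 85. Without centring on the median, 29 were higher and 135 lower.

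**Figure D2:**
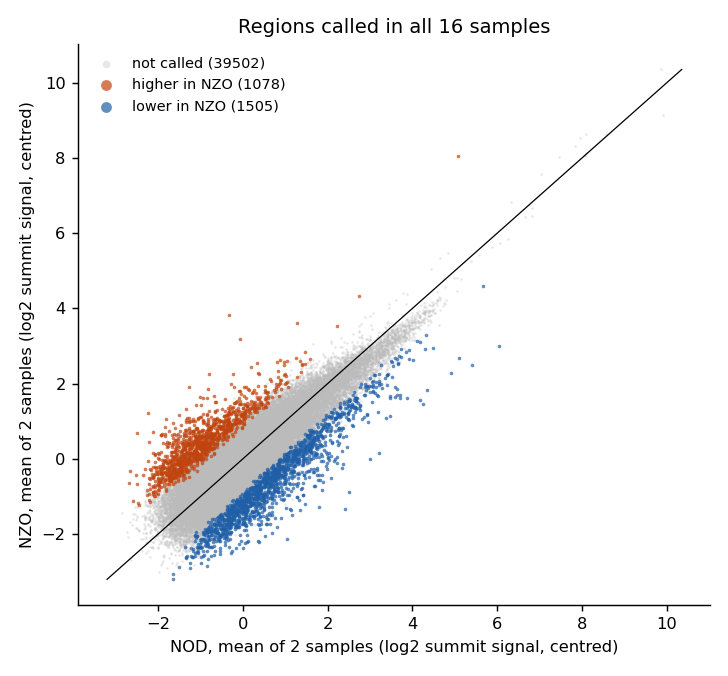
Mean log2 summit signal of the 2 NZO samples (vertical) against the 2 NOD samples (horizontal), each sample centred on its median, for the 42085 regions called in all 16 samples. Orange points are the 1078 regions called higher in NZO, blue points the 1505 called lower, and grey points were not called; the line marks equal signal.

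Among the regions called in all 16 samples, the largest excess in NZO lay in the tandem repeat in Gm5444, a gene model of unknown role 169176 bases from the start of Akr1e1 (chr13:4778350-4778710). Its scaled signal was 19.5 in the NZO female and 18.4 in the NZO male, and 1.13 and 1.1 in the NOD female and male. The 2 NZO values lay far above both NOD values, with a log2 difference of 4.15 ± 0.36 (SE) and an adjusted p of 7.29e-05 in the 16-sample fit. With each sample scaled to its median over the 42085 regions, the other 6 strains ranged from 0.667 to 27.8 around a median of 1.32, so the NZO level was not outside that of the other strains.

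An intron of Akap6, which encodes an anchoring protein for protein kinase A, was also more open in NZO (chr12:52847733-52848683). Its scaled signals were 6.85 and 5.93 in NZO female and male and 0.836 and 0.759 in NOD, a log2 difference of 3.06 ± 0.25 (adjusted p = 6.2e-05). An intergenic region 436782 bases from Cdk5rap2, a centrosome gene, held AP-1 letters and was at 2.77 and 1.64 in NZO against 0.164 and 0.328 in NOD (log2 3.2 ± 0.37, adjusted p = 0.000497). In the other strains this region lay between 0.202 and 0.826 (each sample scaled to its median over the 42085 regions), below both NZO samples at 2.11 and 1.25 on that scale. Of these 3 regions, only the one near Cdk5rap2 had both NZO samples above all 12 samples of the other strains.

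The gene-distal region whose nearest coding gene is Dusp6, a phosphatase of ERK kinases, was at 2.95 and 2.55 in NZO and 0.295 and 0.5 in NOD (log2 2.87 ± 0.33). The promoter of Macc1 was at 1.51 and 3.81 in NZO and 0.492 and 0.293 in NOD (log2 2.69 ± 0.4), and an exon region of Fryl at 1.79 and 5.33 against 0.459 and 0.172 (log2 3.46 ± 0.49). In Macc1 and Fryl the NZO male was higher than the NZO female, and both were above NOD. The other regions of this group lay near Them5, Gm2832 and Ccnh and in Sdccag8. The region near Gm2832 shares a near-identical stretch of reference letters with an NZO-only region at Gm48134, so its values are uncertain. The one near Ccnh, at the promoter of the noncoding gene model Gm4076, had the strongest signal of the named regions, 321 and 379 in NZO and 46.6 and 47.9 in NOD, and ranged from 20.4 to 1340 in the other strains on the 16-sample scale. Whether reads from similar sequence elsewhere were placed at this region was not tested, so its values are uncertain.

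The largest deficit in NZO among them was in Ssx2ip, which encodes a centrosome and junction protein (chr3:146426052-146427399, overlapping an exon). Its scaled signals were 0.705 and 0.357 in NZO and 7.26 and 7.72 in NOD, a log2 difference of -3.75 ± 0.33 (adjusted p = 8.22e-05). Both NOD samples also lay above the highest of the other strains, at 5.21 and 5.53 against 3.78 on the 16-sample scale. An intron of Cttnbp2, a cytoskeletal gene, was at 0.311 and 0.262 in NZO and 2.84 and 2.93 in NOD (log2 -3.16 ± 0.27, adjusted p = 7.29e-05), and there too NOD was above all other strains. The promoter of Fggy, a carbohydrate kinase gene, was at 2.8 and 0.762 in NZO and 14.0 and 12.3 in NOD (log2 -3.06 ± 0.42, adjusted p = 0.00197). The NZO male was lower than the NZO female there.

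An intron of Ctnna2, which encodes a neuronal catenin, and a region 88025 bases from Fam98a had NZO values of 0.262 to 1.03 and NOD values of 4.44 to 8.0. An intron of Ccdc178 was at 1.77 and 0.976 in NZO and 10.6 and 11.8 in NOD. Near Klrb1c, in the cluster of natural killer cell receptor genes, both NZO samples (3.62 and 3.71) lay below both NOD samples (26.7 and 26.7), and a region 3819 bases from Josd2 was at 0.393 and 0.643 in NZO and 3.54 and 3.69 in NOD. The promoter of Gm14410 was at 8.84 and 12.7 in NZO and 92.4 and 93.6 in NOD, and a region over the promoters of Gm14403 and Zfp970 at 6.66 and 8.4 against 59.3 and 59.8. Both belong to a cluster of near-identical zinc finger genes on chromosome 2, where reads can be placed on several copies, so these values are uncertain. The latter region spans 81750 bases. With the deposited mean signal in place of the summit, the log2 difference at Gm14410 shrank from -3.05 to -0.73 and was no longer called, and that of the region at Gm14403 went from -2.9 to 0.66, the opposite sign.

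**Figure D3:**
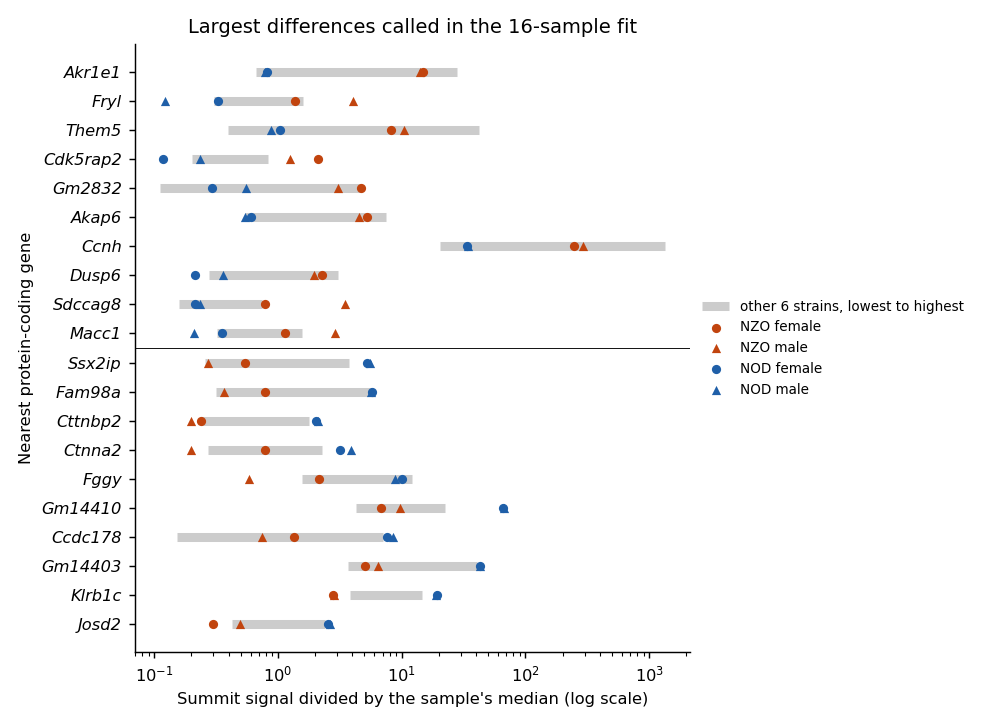
Summit signal divided by the sample's median over regions called in all 16 samples (log axis) for the 20 named regions, by nearest coding gene; those above the line were higher in NZO and those below it lower. Circles are females, triangles males, orange NZO, blue NOD, and grey bars run from the lowest to the highest of the 12 samples of the other 6 strains.

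Some of the largest differences of the 4-sample fit lay in regions that were not called in all 16 samples, and none passed the adjusted threshold (adjusted p 0.0726 to 0.079 in limma). Near Gdf3, a TGF-beta family ligand, the scaled signal was 8.54 and 13.7 in NZO and 0.41 and 0.362 in NOD, and in an intron of Ank3, the ankyrin-G gene, 12.8 and 15.1 against 1.3 and 1.14. Both windows are tandem repeats in the reference, with periods of 6 and 46 bases and 100.0% of letters equal at that shift. Introns of Clec2g and Fignl1 held AP-1 letters and were at 5.34 and 5.02, and 4.44 and 4.24, in NZO, and at 0.397 to 0.448 in NOD. The opposite was measured near Marveld2, a gene of tricellular junctions (0.246 and 0.405 in NZO, 4.26 and 4.48 in NOD), in 1700010N08Rik (0.41 and 0.381 against 3.28 and 3.55) and in Ppm1h (0.541 and 0.405 against 4.1 and 5.05). The Ppm1h window repeats in part, with 74.0% of letters equal at a shift of 8 bases. These 7 regions were chosen by this comparison, so the gaps between the strains are a description.

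The called regions were also compared with the samples of the other strains. Among the 1078 regions higher in NZO, both NZO samples lay above all 12 other samples in 218 (20.2%), and both NOD samples lay below all 12 in 224 (20.8%). Among the 1505 lower regions the numbers were 325 (21.6%) for NZO and 356 (23.7%) for NOD. NZO was farther than NOD from the mean of the other strains in 59.1% of the higher and 56.8% of the lower regions. In most of the called regions neither strain had both samples beyond all 12. The calls were chosen by these same NZO and NOD values, and no such shares were computed over all tested regions. Which strain a call came from was not tested.

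Regions called in 1 strain only were weaker and narrower than shared ones. The NZO-only regions had a median width of 228 bases and a median scaled signal of 0.465, and the NOD-only regions 260 bases and 0.398. Promoters made up 12.7% of NZO-only and 10.7% of NOD-only regions, against 27.7% of the regions shared by all 4, and introns 44.3% and 41.8%. Only 538 NZO-only regions (4.11%) overlapped the authors' reproducible peak list of NZO, against 714 (12.8%) of the NOD-only regions for NOD. The NZO list also covered less of the whole, 17.6% of all regions against 24.3% for the NOD list, and 53.9% against 71.5% of those shared by all 4 samples. The excess of NZO-only regions went with the length of the peak lists: when each list was cut to its 89618 strongest peaks, 7411 regions were NZO-only and 8233 NOD-only, so the order turned round. A region needs only 1 call per strain once a sample is left out, and the NZO-only count was then 68954 without the NZO female and 26960 without the NZO male, and the NOD-only count 16242 without the NOD female, 14473 without the NOD male and 13264 without the NZO female. The 2-sample patterns that cross the strains held 1133 to 2615 regions each, fewer than either strain-only pattern.

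The strongest NZO-only region lay in an intron of Ryr2, the gene of a calcium release channel of the endoplasmic reticulum (chr13:11880184-11881090). It had a scaled signal of 12.1 in the NZO female and 7.5 in the NZO male and no listed peak in either NOD sample. It was listed in 10 of the 12 other samples, all but those of PWK. The region in Csmd1, a complement regulator, was at 7.26 and 5.21, the one near Rubcnl, a gene of autophagosome maturation, at 6.25 and 4.71, and the one near St7 at 3.98 and 2.98. Those in Csmd1 and near Rubcnl were listed in 10 and 12 of the 12 other samples: besides NOD, only AJ lacked the former and no other strain the latter. The region near St7 was listed in AJ and WSB only.

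The promoter of Ifi27l2b, an interferon-inducible gene, was called in both NZO samples at 3.46 and 4.69, in no NOD sample, and otherwise only in CAST and PWK. An intron of Esyt2 was at 2.98 and 3.29. A region next to the immunoglobulin segment Ighv2-1 was at 8.77 and 3.0 and was listed in 11 of the other samples. The remaining regions among the 10 strongest were at the noncoding gene models Gm48398, Gm48134 and Gm2058. The window at Gm48134 shares a long run of near-identical reference letters with that of the region near Gm2832 named above. Reads can be placed at either, so these values are uncertain. In all 10 both NOD samples were without a listed peak. That says only that no call was made there at the deposited threshold, and reads below it may exist.

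The strongest NOD-only region was the tandem repeat in an intron of Cobl, an actin nucleator gene (chr11:12375000-12375296). Its scaled signal was 23.7 in the NOD female and 22.2 in the NOD male, and only CAST had it besides. An intron of Dicer1, which encodes the enzyme that makes microRNAs, was at 5.87 and 5.98, and an intron of Klhl1 at 4.77 and 6.81. The Dicer1 window repeats in part, with 52.1% of letters equal at a shift of 33 bases. An intron of Rgs20, a regulator of G protein signalling (chr1:5000677-5001362), was at 5.51 and 4.72, and a region 2471 bases from the olfactory receptor gene Olfr554 at 2.92 and 4.31. Those in Rgs20 and near Olfr554 were listed in no sample of another strain. The others lay at the T cell receptor segment Trav13d-1, in Dapk1, and far from Wdr1, 1700017N19Rik and Pcdh9, with scaled signals of 2.9 to 6.46.

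The other strains held most strain-only regions. Of the NZO-only regions, 58.3% were called in both WSB samples, 52.1% in both CAST, 31.1% in both B6, 27.5% in both PWK, 19.8% in both 129 and 6.97% in both AJ samples. For the NOD-only regions the shares were 59.2% in WSB, 47.6% in CAST, 35.9% in B6, 31.1% in PWK, 27.0% in AJ and 21.7% in 129. The strains thus had similar orders for both, apart from AJ, which held fewer of the NZO-only regions. Only 1125 NZO-only (8.58%) and 233 NOD-only regions (4.19%) were in no other list, and 159 (1.21%) and 146 (2.63%) were in all 12.

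Of the motifs searched, the AP-1 letters differed most between the strain-only regions. Away from promoters they stood in 31.8% of the 11435 NZO-only windows and 7.98% of the 4965 NOD-only windows, against 17.4% of the windows shared by all 4 samples and 19.2% of all windows away from promoters. The difference was as wide in introns (33.1% and 8.74%) as between genes (31.3% and 7.32%), and was present at promoters (20.2% and 6.08%). In regions called in the NZO female alone the share was 18.6%, in the NZO male alone 23.2%, in the NOD female alone 7.73% and in the NOD male alone 9.88%. With the peak lists cut to equal length the shares were 36.2% and 8.86%, and without the NZO male 25.0% and 8.61%. The median GC content of these windows was 47.0% in NZO-only and 45.5% in NOD-only regions.

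The matches clustered near the summit. There were 6.32 matches per 100 NZO-only regions in the 20 bases just after the summit and 1.37 in the outermost 20 bases. In regions shared by all 4 samples these values were 2.93 and 0.902. In NOD-only regions the matches were fewer at every distance, with 0.967 to 1.07 per 100 regions within 40 bases of the summit and 0.564 to 0.665 beyond 60 bases. The matches were thus densest near the summit in all 3 classes, with the widest span in NZO-only regions.

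Regions called in every sample showed the same gradient. When the 42576 shared regions away from promoters were ordered by their NZO minus NOD difference, the share with AP-1 letters climbed from 8.53% in the lowest to 37.1% in the highest of 10 equal groups. With the NZO female alone the ends were 8.43% and 34.8%, and with the NZO male alone 10.5% and 36.6%. These orders share the same NOD mean, so they are not independent of each other. Among the regions called by the 16-sample fit, 34.5% of those higher in NZO and 5.77% of those lower had the letters, away from promoters, against 15.7% of all tested.

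**Figure D4:**
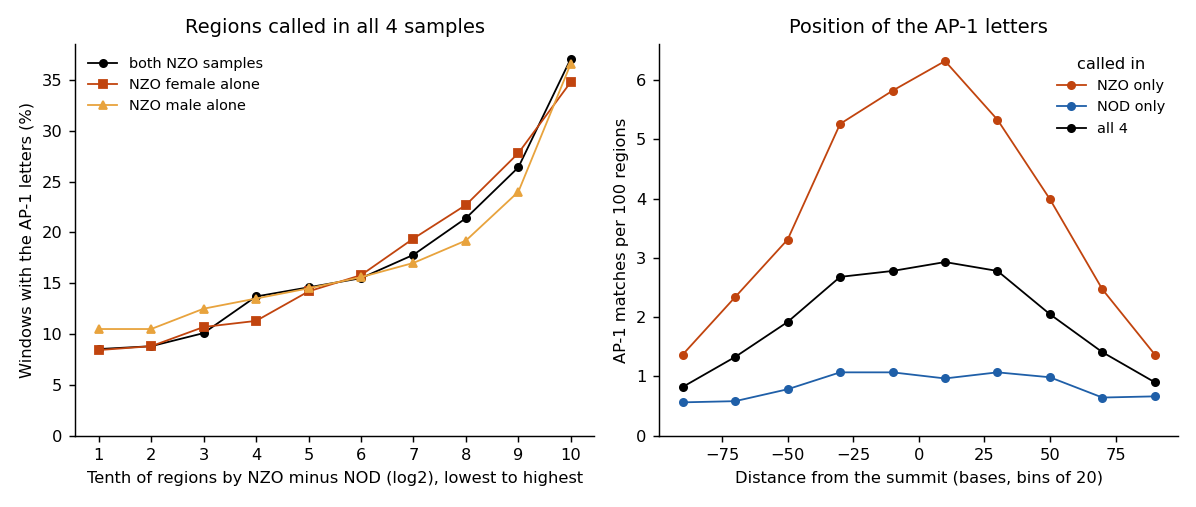
Left, share of 200-base windows with the AP-1 letters (percent) over 10 equal groups ordered by the NZO minus NOD log2 difference, for regions called in all 4 samples away from promoters; the share climbs with both NZO samples (8.53% to 37.1%) and with either alone. Right, AP-1 matches per 100 regions by distance from the summit in bins of 20 bases; NZO-only regions reach 6.32 near the summit and NOD-only regions reach 1.07.

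Per sample, the median log2 signal of regions with AP-1 letters minus that of regions without them was 0.33 in the NZO female and 0.49 in the NZO male, and -0.06 and 0.03 in the NOD female and male (28424 regions called in all 16 samples and away from promoters, 4460 of them with the letters). The 2 strains did not overlap, and the mean difference was 0.43. The exact permutation test, two-sided, gave p = 0.333, which is the smallest that 2 against 2 samples allow. Within some of the other strains the sexes differed by as much as that: by 0.52 in AJ, 0.47 in B6 and 0.48 in PWK. Both WSB samples (0.59 and 0.66) were above NZO and both 129 samples (-0.2 and -0.21) were below NOD. The AP-1 difference between NZO and NOD was therefore no larger than the spread seen within 3 other strains.

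**Figure D5:**
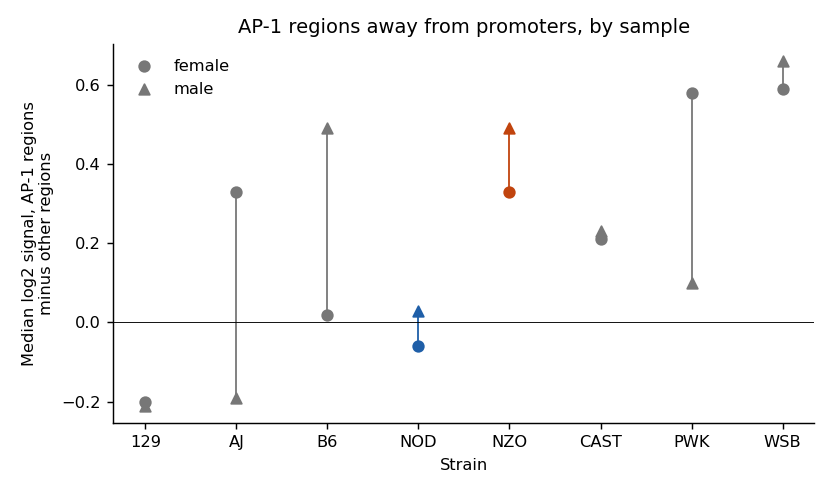
Median log2 signal of regions with AP-1 letters minus that of regions without them, for each of the 16 samples, with a line joining the female (circle) and male (triangle) of a strain. NZO (orange, 0.33 and 0.49) lies above NOD (blue, -0.06 and 0.03), while the females and males of AJ, B6 and PWK lie as far apart as the 2 strains do.

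In some of the other strains, NZO-only regions with and without AP-1 letters were listed at different rates. Of the 3642 with the letters, 69.0% were called in both WSB samples and 7.72% in both 129 samples, and of the 7793 without them 51.7% and 22.1%. The shares were closer in CAST (49.2% and 50.8%) and B6 (31.3% and 31.5%). NOD-only regions had the same directions, with the larger share in WSB among those with the letters (73.7%) and the smaller one in 129 (15.2% against 21.3%), so this was not particular to NZO-only regions. Of the NZO-only regions in no other list, 27.8% had the letters, and of those in 7 to 12 other lists 32.7%. Other motifs differed less. The ETS letters GAGGAAGT, bound by PU.1 in leukocytes, stood in 3.16% of NZO-only and 1.28% of NOD-only regions, and in 2.5% of all regions. The homeodomain letters TAATTAA, bound by the beta cell factors PDX1 and NKX6-1, stood in 2.73% and 4.73%, and in 3.35% of all regions. The letters CAGATGG, an E-box of NEUROD1, stood in 6.36% and 7.97%, and in 6.5% of all regions.

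Of the genes that encode AP-1 subunits themselves, Jun had a lower promoter signal in NZO. There the scaled signal was 11.6 and 11.3 in NZO female and male and 26.4 and 25.2 in NOD, a log2 difference of -1.09 ± 0.26 in the 16-sample fit (adjusted p = 0.0294). With quantile normalization the difference was -0.69 and was not called. At Jund the values were 3.44 and 4.83 against 8.31 and 6.97, at Fos 3.3 and 3.79 against 6.82 and 5.47, and at Fosb 2.72 and 3.4 against 5.11 and 5.02. The strains did not overlap at any of these 4, but only Jun passed the adjusted threshold (adjusted p of the others 0.104 to 0.252). Junb overlapped, at 2.61 and 4.5 in NZO and 5.61 and 4.31 in NOD. Fosl1 and Fosl2, which also encode AP-1 subunits, are not described here. Of the 16 immediate early promoters, all called in all 4 samples, 1 was higher and 5 were lower in NZO without overlap. Over the 11149 protein-coding promoters called in all 4, 24.3% were higher and 31.5% lower without overlap, so the lower count was near that share. The immediate early median log2 difference was -0.2, against 0.05 over those promoters. With the NZO female alone these medians were -0.43 and -0.16.

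Among protein-coding promoters, the 16-sample fit called 177 (1.78% of 9954) higher and 225 (2.26%) lower in NZO. Without overlap, 2707 (24.3% of 11149) were higher and 3512 (31.5%) lower. These shares without overlap are called the background below, and no list was tested against them. Of the 13824 distinct promoter regions of protein-coding genes, 513 (3.71%) were NZO-only and 125 (0.904%) NOD-only. The gene lists below describe cell types and pathways relevant to islets. Differences given with an SE or an adjusted p come from the 16-sample fit, and list medians are log2 differences of the 4 samples. Their promoters were called in 5 cases higher (Slc2a2, Iapp, Ppp1r1a, Bhlha15 and H2-K1) and in 3 cases lower (Rfx6, Hhex and Jun) in NZO. The lists were not tested against the 1.78% and 2.26% called over all protein-coding promoters, so the calls describe single promoters and not the lists. None of these 8 was called when the NZO male, the NOD female or the NOD male was left out, each of which leaves 1 sample in a group, or when the samples were not centred; without the NZO female, 31 and 13 list promoters were called. With the mean signal in place of the summit, Slc2a2, Bhlha15 and Jun were called, while Rfx6 (-0.82) and Hhex (-0.71) kept their sign without being called.

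Of 21 beta cell promoters tested, 3 were higher and 1 was lower in NZO (1.78% and 2.26% over all protein-coding promoters). Slc2a2 had the largest change: its scaled signal was 3.31 and 4.26 in NZO female and male and 1.16 and 1.34 in NOD (log2 1.66 ± 0.35, adjusted p = 0.0199). This is the region whose window is printed above with 1 AP-1 match. Iapp, which encodes the amyloid peptide secreted with insulin, was at 1.41 and 1.33 against 0.77 and 0.517 (log2 1.19 ± 0.28, adjusted p = 0.0276), and Ppp1r1a, a protein phosphatase inhibitor abundant in beta cells, at 2.0 and 2.02 against 0.885 and 1.02 (log2 1.16 ± 0.23, adjusted p = 0.0142). At all 3, both NZO samples were above both NOD samples. With the mean signal, the difference fell to 0.28 at Iapp and 0.18 at Ppp1r1a and neither was called. Rfx6, a transcription factor of islet development, went the other way, at 3.25 and 2.5 in NZO and 5.84 and 6.0 in NOD (log2 -0.96 ± 0.23, adjusted p = 0.0279).

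At the insulin genes the values of the strains overlapped. Ins2 was at 0.82 and 0.5 in NZO and 0.836 and 0.793 in NOD, and Ins1 at 6.33 and 1.9 against 6.87 and 6.02, where the NZO male alone was low. Ucn3, a marker of mature beta cells, was at 1.75 and 0.881 in NZO and 2.77 and 2.72 in NOD (adjusted p = 0.0597), and Pcsk1, a prohormone convertase gene, at 2.52 and 1.24 against 4.48 and 3.12 (adjusted p = 0.0761). Mafa, a transcription factor of insulin genes, was at 2.87 and 4.81 against 2.31 and 1.83 (adjusted p = 0.0752). For these 3 the strains did not overlap but the adjusted threshold was not met. Of the 21 beta cell promoters called in all 4 samples, 5 were higher and 8 lower in NZO without overlap (background 24.3% and 31.5%). Their median was -0.2, and -0.02 with the NZO female alone.

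In other endocrine cells, Hhex, a transcription factor of delta cells, was lower in NZO, at 0.131 and 0.119 against 0.41 and 0.466 (log2 -1.56 ± 0.27, adjusted p = 0.00712). All these values are weak beside the median shared region. The region 862 bases from the start of Gcg, the glucagon gene of alpha cells, was at 5.16 and 2.43 in NZO and 8.31 and 7.93 in NOD (adjusted p = 0.058), while Irx2, also of alpha cells, had a higher value in the NZO male (2.38) than in the other 3 samples (0.862 to 0.984). Of the 8 endocrine promoters called in all 4 samples, 2 were higher and 4 lower without overlap (background 24.3% and 31.5%).

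Duct genes had more promoter peaks in both NZO samples than in either NOD sample, while of the acinar genes the NZO male had the most of the 4. The signal of shared duct promoters did not follow. Of the 4 duct promoters called in all 4 samples, 0 were higher and 3 lower in NZO without overlap (background 24.3% and 31.5%). Their median was -0.35, and -0.27 with the NZO female alone. Bhlha15, which encodes the acinar factor MIST1, was at 1.02 and 1.52 in NZO and 0.557 and 0.569 in NOD (log2 1.21 ± 0.27, adjusted p = 0.0232). The promoters of Rbpjl, an acinar transcription factor (0.426 and 1.07), and of Krt7, a duct keratin (0.705 and 1.05), were NZO-only, and were listed in 6 and 8 of the 12 other samples. Nr5a2, an acinar factor that is also active in endocrine cells, was at 1.11 and 1.24 in NZO and 2.38 and 1.86 in NOD (adjusted p = 0.0956). The defining duct genes Krt19 and Sox9 had a promoter peak in the NZO male alone.

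Leukocyte genes were led by the NZO male. Cd68, a macrophage gene, was at 2.02 in the NZO male, 0.557 in the NZO female, and 0.361 and 0.207 in NOD. Lck, a T cell kinase, was at 1.12 in the NZO male and 0.483 to 0.639 in the other 3 samples, and the summed scaled signal over the list was 15.9 in the NZO male and 4.67 to 5.21 in the others. Of the 8 leukocyte promoters called in all 4 samples, 5 were higher and 2 lower in NZO without overlap (background 24.3% and 31.5%). Their median was 0.73 with both NZO samples and 0.21 with the NZO female alone. None of the list's promoters was NZO-only (0 of 20 regions). The promoter of Irf8, a transcription factor of myeloid and B cells that is in the interferon list instead, was NZO-only at 0.475 and 1.19. In the NOD samples the number of leukocyte promoters with a peak, 8 in each, was within the range of the other strains.

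Genes of antigen presentation included the last of the called promoters. H2-K1, which encodes a classical MHC class I chain, was at 4.05 and 7.9 in NZO and 2.62 and 2.52 in NOD (log2 1.22 ± 0.33, adjusted p = 0.043), and H2-D1 at 5.18 and 14.1 against 3.43 and 3.69 (adjusted p = 0.055). The NZO male was the highest at both. These genes have near-identical relatives and differ in sequence between strains, so reads aligned to the B6 reference can be split or lost, and with the deposited mean signal the H2-K1 difference was -0.18. With sex as a replicate block the H2-K1 difference was not called. The class II gene H2-Ab1, the major NOD susceptibility gene, was at 0.426 and 1.9 in NZO and 0.869 and 1.14 in NOD, where the groups overlapped, and H2-Eb1 was at 1.43 and 3.26 against 0.869 and 1.17. Ifih1, a sensor of viral RNA at a NOD locus, was at 6.31 and 6.4 in NZO and 10.5 and 9.95 in NOD (adjusted p = 0.109). Of 34 interferon and antigen presentation promoters called in all 4 samples, 8 were higher and 6 lower without overlap (background 24.3% and 31.5%). Their median was 0.18, and -0.17 with the NZO female alone.

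Among candidate genes of the NZO obesity and diabetes loci, the promoter of Lefty1, an inhibitor of Nodal signalling (chr1:180936705-180936993), was NOD-only at 0.574 and 0.776 and was listed in 6 other samples, those of 129, B6 and WSB. Zfp69, a zinc finger gene of a diabetes locus, had similar values of 3.87 and 4.1 in NZO and 3.74 and 3.03 in NOD. Lepr, the leptin receptor gene, had a promoter peak in the NOD female only, and Ifi202b in the NZO male only. Of the 14 candidates at NOD loci, 4 had a promoter called in all 4 samples, and 0 of those 4 passed the 16-sample test (B2m, 4.67 and 6.86 against 6.2 and 5.62).

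Slc2a2 was the only promoter past the adjusted threshold in the unfolded protein response, cell cycle, insulin secretion and lipid lists. In the unfolded protein response, Creld2 was at 3.1 and 6.81 in NZO and 1.98 and 2.53 in NOD (adjusted p = 0.0702), and Xbp1, its central transcription factor, at 2.51 and 3.52 against 2.08 and 1.12 (adjusted p = 0.0652). Of its 25 promoters 4 were higher and 5 lower without overlap (background 24.3% and 31.5%). Their median was 0.15, and -0.18 with the NZO female alone. In the cell cycle list, Ccna2, the cyclin A2 gene, was at 5.85 and 7.0 in NZO and 12.4 and 11.6 in NOD (adjusted p = 0.0746), and Cdkn1a, which encodes the inhibitor p21, at 1.51 and 3.07 against 0.754 and 0.793. Tph1, whose enzyme makes serotonin in beta cells during pregnancy, was at 0.574 and 0.571 against 1.11 and 0.983.

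Among lipid and redox genes, Acly, the ATP citrate lyase gene, was at 1.87 and 4.55 in NZO and 1.59 and 1.24 in NOD (adjusted p = 0.0695), and Dgat1, a triglyceride synthase gene, at 2.52 and 6.74 against 2.25 and 2.03. The NZO male carried most of both. Nnt, which encodes the mitochondrial transhydrogenase and carries a deletion in B6 mice, was at 1.85 and 2.55 in NZO and 4.13 and 3.21 in NOD (adjusted p = 0.117). Of 25 lipid and redox promoters called in all 4 samples, 7 were higher and 10 lower in NZO without overlap (background 24.3% and 31.5%). Their median was 0.07, and -0.17 with the NZO female alone. For insulin secretion, 4 of 24 were higher and 8 lower without overlap, beside the same background. The median of that list was -0.06, which was -0.13 with the NZO female alone and 0.07 without the NOD female. Neither list thus had a direction that held for every choice of samples. Cacna1a, a calcium channel gene, was at 3.15 and 7.29 in NZO against 2.72 and 2.69 in NOD, and Snap25, of the exocytosis machinery, at 3.92 and 2.45 against 4.59 and 4.78.

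Strain-only regions were not spread evenly over the genome. Chromosome 11 had the highest share of NZO-only regions, 12.3% of 7431, and the lowest share of NOD-only regions, 1.24%. Among 2369 windows of 1 Mb with at least 20 regions, the median share was 5.97% NZO-only and 2.0% NOD-only. The windows with the highest NZO-only share were 3 on chromosome 11, at 89 to 90 Mb (34.5% of 29 regions, with Pctp, Nog and Trim25), at 57 to 58 Mb (34.1% of 41, with Gria1 and Galnt10) and at 76 to 77 Mb (30.4% of 69, with Abr and Slc6a4), and those at 188 to 189 Mb of chromosome 1 (31.6%, with Esrrg) and 128 to 129 Mb of chromosome 5 (30.0%, with Rimbp2). Their NOD-only shares were 0.0% to 3.45%.

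NOD-only regions were most concentrated on chromosome 2. At 177 to 178 Mb, 115 of 205 regions (56.1%) were NOD-only and 0 NZO-only, and the neighbouring windows at 175 to 176 Mb and 176 to 177 Mb had 40.4% and 38.0%. These windows hold a cluster of zinc finger genes, among them Gm14410 and Zfp970, whose copies are near-identical. The other windows were at 23 to 24 Mb of chromosome 7 (27.8%, with Nlrp5 and vomeronasal receptor genes) and 93 to 94 Mb of chromosome 3 (24.3%, with Flg and Rptn). A difference in copy number between strains and a difference in accessibility cannot be told apart in these windows.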

How the data were processed

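ATAC-seq reads of 16 mouse islet samples had been trimmed (cutadapt 2.0), aligned to mm10 (Bowtie2 2.3.4.1) and deduplicated (Picard 2.9.2) by the authors, per the labels. No filter on reads that align to several places is stated, nor a shift for the Tn5 cut. The authors called peaks per sample with MOSAiCS at an FDR of 0.05 and deposited, for each peak, a summit signal and a mean signal that are not scaled to depth and a −log10 p-value; what the mean is taken over is not given in the sources used here. Per strain, reproducible peaks at an IDR of 0.05 were deposited with signals, −log10 values and IDR scores, and only their positions were used. The lists hold no read totals, so the depth behind each value is unknown and no counting interval is given.

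Overlapping peaks of the 4 lists on chromosomes 1 to 19 were merged. A region's value in a sample was its highest summit signal, as log2(signal + 1), centred on the sample's median over the shared regions, and fold changes are on that scale. Strain was tested with limma 3.58.1 in R 4.3.3 on the 4 samples (strain alone) and in a model of 8 strain means over all 16, with Benjamini-Hochberg adjustment over all regions tested; the study had tested strain with DESeq2 on counts, which are not used here. A listed 0 means no peak. Scripts used Python 3.11.15, numpy 2.4.6, pandas 2.3.3 and scipy 1.17.1, and were tested on simulated data. Genes came from GENCODE on GRCm38, the same assembly as mm10. A promoter is a region within 1000 bases of a transcript start, and where a gene has several its strongest was used. Counts of marker genes with a promoter peak take any peak within that distance.

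Named shared regions were the 10 largest differences in each direction among those called without overlap, or, with fewer, the next 5 by p as values only. Named strain-only regions were the 10 per strain with the highest lower scaled signal. Named list promoters were up to 4 with the largest difference per list, strain-only members, and genes fixed by name, of which a few are not reported here; Ppp1r1a, Rfx6, Ins1, Mafa, Junb, Nnt, Krt19, Sox9 and Ifi202b were added after their values were seen. Windows were the 5 of 1 Mb per strain with the highest share. The members, lists and motifs were chosen with earlier results of these data known. Alternatives covered the pseudocount (5), centring, normalization, low regions, the mean signal, sex as a block, the variance prior, merging, width, peak threshold and each sample left out. For the 16-sample fit and the AP-1 shares, and for leaving out samples in the lists, they were chosen after seeing the data.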

Additional observations from a re-analysis of the deposited data

How the results depend on the processing

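In the 4-sample fit, where 0 regions were called either way, a pseudocount of 5 called 11 higher and 19 lower in NZO, no centring 1 higher, the mean signal 15 and 13, a variance prior with a trend 89 and 201, and all 16 samples 1078 and 1505. Leaving out 1 sample gave 19 to 8746 higher and 17 to 11305 lower, the most without the NZO female; a lone sample is then assumed to vary like the others. With sex as a replicate block, which leaves 1 residual degree of freedom, 1133 were higher and 1227 lower. The labels pair no samples: NZO and NOD sex differences had a correlation of -0.198 over regions, so the block only shares sex. In the 16-sample fit the block gave 852 and 1255. There the mean signal called 435 and 526, no centring 29 and 135, and the upper part by signal 697 higher. Leaving out 1 sample gave 77 to 4241 higher and 75 to 5593 lower, fewest without either NOD sample or the NZO male. The median NZO minus NOD difference over shared regions was -0.101, -0.329 with no centring and -0.014 with quantile normalization.

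NZO-only regions numbered 6385 at a stricter threshold (−log10 p of at least 5) and 7411 with equal lists, and 15851 to 68954 without 1 sample. NOD-only regions numbered 2061 at the stricter threshold, 10829 where a peak had to cover 0.5 of the region, and 7172 to 16242 without 1 sample. The AP-1 share was 34.3% in NZO-only regions at the stricter threshold, 36.2% with equal lists and 24.8% to 31.0% without 1 sample. In NOD-only regions it was 8.86% with equal lists, 9.85% with the covered share and 7.82% to 10.3% without 1 sample, so NZO-only stayed above NOD-only under each. Called list promoters fell from 5 higher and 3 lower to 0 and 0 without centring, and leaving out 1 sample gave 0 to 31 and 0 to 13.

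Over 28 named regions and promoters under 13 settings of the 16-sample fit, 46 calls were lost and 2 differences changed sign, both with the mean signal: H2-K1 (-0.18) and the region at Gm14403 (0.66). The cause of these changes was not tested.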
